A study of Arabidopsis thaliana with 32 samples.

Results

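The RNA bound to tagged ribosomes was examined in Arabidopsis thaliana rosette leaves after 1 day without magnesium. The members are the 6 shoot TRAP (translating ribosome affinity purification) libraries, 3 from plants moved to magnesium-deficient medium (MgD) and 3 from plants kept in normal nutrient medium (CK), of the 24 libraries in the deposited count table. All 6 came from p35s:HF-RPL18 plants that had grown hydroponically for 6 weeks. A further 8 samples of the series were removed and have no counts in that table, among them a shoot TRAP sample of each treatment. The 35S promoter drives the tagged ribosomal protein RPL18 in most cell types, so the captured RNA is a mixture over the leaf. In the MgD medium a sodium salt stood in for magnesium sulfate, so the media differed in sodium as well. Of 27655 genes in the table, 19341 had enough counts in the shoot libraries to be tested.

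Magnesium sits at the centre of chlorophyll, holds the ribosomal subunits together and binds ATP, and leaves short of it are known to accumulate sugar and starch. Plant cells store magnesium in the vacuole, where exchangers and channels move it across the vacuolar membrane, the tonoplast. Calcium shares part of this machinery: CAX proteins exchange calcium for protons at the tonoplast, and CBL calcium sensors recruit CIPK kinases to the membranes that carry ion transporters.

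The libraries held 41472378, 34376826 and 34278007 counts under MgD, and 36967435, 31069657 and 25025845 under CK. Pearson correlations of log2 CPM (counts scaled to library size) were 0.980 to 0.988 within MgD, 0.974 to 0.985 within CK and 0.975 to 0.988 between MgD and CK. The ranges within and between groups overlapped. The leaf label held in both groups: 5 mesophyll markers took 3.88% to 4.49% of the counts under MgD and 4.04% to 4.23% under CK. The root marker list took 0.0058% to 0.00612% under MgD and 0.005684% to 0.006598% under CK, against 0.02426% to 0.05073% in root TRAP RNA. Of that list, CASP1 and EXPA7 had 0 counts in all 6 libraries. EXPA7 was nearly absent from root TRAP RNA of CK plants too, so it says little about the label. SCR, SHR, RHD2 and NRT2.1 had counts in all 6 libraries, and SCR averaged above its level in root TRAP RNA of CK plants. RPL18, native and tagged copies together, took 2.41% to 2.703% under MgD and 2.65% to 3.04% under CK, against 0.186% to 0.215% in shoot total RNA. Chloroplast-encoded genes took 0.00342% to 0.0104% under MgD and 0.00391% to 0.00766% under CK. For 8 such shares of markers and organelle genes, an exact two-sided permutation test gave a lowest p of 0.1 (adjusted p = 0.6). That is the smallest p that 3 against 3 allows, so the test could not pass 0.05 and does not show that the shares were equal. Only the phloem share did not overlap between groups (0.0550% to 0.0605% under MgD, 0.0614% to 0.0768% under CK).

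CAX1 (AT2G38170), the tonoplast exchanger of calcium and protons, had the smallest p of all genes tested. Its TMM-scaled CPM was 525, 608 and 692 in the 3 MgD libraries, against 247, 330.2 and 225 in the 3 CK libraries. Every MgD library lay above every CK library, and the means stood 2.27-fold apart (log2 fold change 1.19 ± 0.18 SE, n = 3 and 3). In bulk leaf RNA, more cells expressing a gene and more RNA per cell cannot be told apart. Across all genes the edgeR quasi-likelihood test with Benjamini-Hochberg adjustment did not call it (adjusted p = 0.27), and DESeq2 did (adjusted p = 1.71e-06). Part of the spread follows the number that each library carried before the submitters renumbered their replicates: MgD replicate 1 and CK replicate 2 were both number 2, and MgD replicate 2 and CK replicate 3 were both number 3. With that original number as a block, edgeR called CAX1 higher under MgD (log2 fold change 1.04, adjusted p = 0.00036), and it did so again with each of the 6 TRAP libraries left out in turn (log2 fold changes of 0.82 to 1.21). Of 14 alternative fits on all 6 TRAP libraries, 5 called CAX1, each by DESeq2 or by edgeR with a block. No limma fit called it, and the estimates over the 14 ran from 1.03 to 1.20. Of the other CAX exchangers tested, CAX2 had a log2 fold change of -0.06 ± 0.12, CAX3 0.12 ± 0.26 and CAX5 -0.09 ± 0.16, with overlapping groups in each. On the length-scaled level in TPM (scaled for library size and transcript length), CAX1 averaged 346 ± 37.9 under MgD and 152 ± 32.1 under CK, and CAX3 72.8 ± 13.1 under MgD and 66.5 ± 19.1 under CK (SD, n = 3 each).

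The sequence before the CAX1 start is shown because CAX1 was called by DESeq2 and by the fits with the original number as a block. It covers 250 bases of TAIR10.1, credited to RefSeq, at chr2:15993327-15993576 (reverse strand), and overlaps no other gene. None of the 7 motifs searched on both strands was in it: the evening element AAAATATCT, the G-box CACGTG, the W-box TTGACC or TTGACT, the GCC-box GCCGCC, the CAMTA box ACGCGT, the telo-box AAACCCTA and the site II element TGGGCC.
CAX1: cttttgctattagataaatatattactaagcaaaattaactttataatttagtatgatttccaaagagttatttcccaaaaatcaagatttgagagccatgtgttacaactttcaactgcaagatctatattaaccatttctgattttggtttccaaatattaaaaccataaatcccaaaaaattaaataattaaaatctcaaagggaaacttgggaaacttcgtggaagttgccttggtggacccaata

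**Figure D1:**
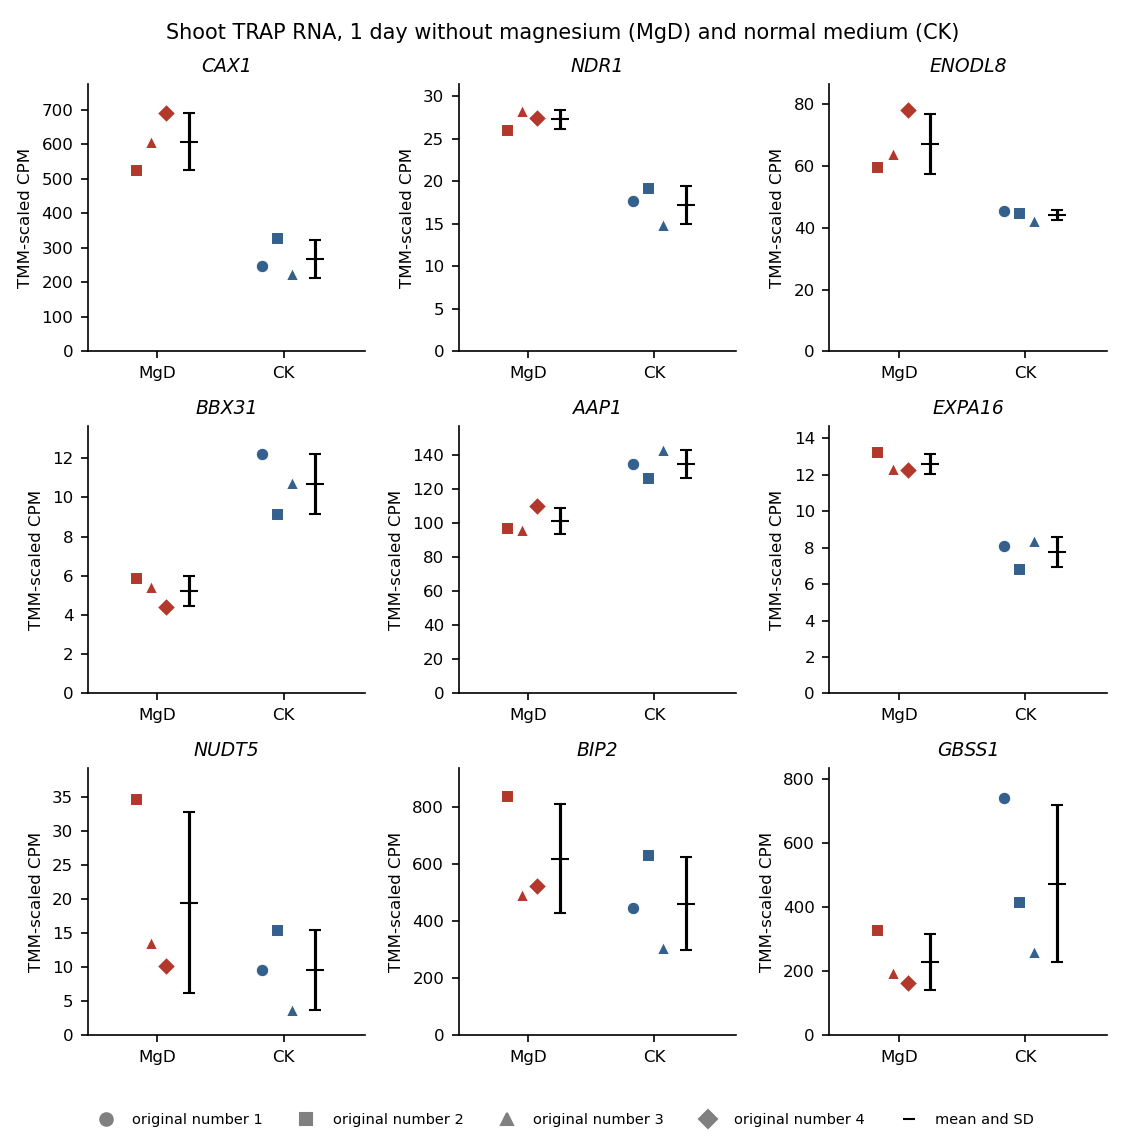
TMM-scaled CPM (y axis, from 0) of 9 genes in the 3 MgD (red, left) and 3 CK (blue, right) shoot TRAP libraries, with marker shapes for the original library number and black bars for the mean and SD. For CAX1, NDR1, ENODL8 and EXPA16 the MgD points are higher than every CK point and for BBX31 and AAP1 all lie below, whereas NUDT5, BIP2 and GBSS1 overlap.

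Across all genes, the edgeR test called 0 of 19341 genes (0%) in either direction. At an unadjusted p under 0.05 there were 1433 genes (7.41%), of which 692 were higher (3.58%) and 741 lower (3.83%). The lowest MgD value exceeded the highest CK value for 1087 genes (5.62%), and the highest MgD value was under the lowest CK value for 956 (4.94%). Estimates were positive for 50.3% of the genes and negative for 49.4%. The median log2 fold change was 0.00, and the estimate was at least 2-fold higher for 291 genes (1.5%) and at least 2-fold lower for 318 (1.64%). DESeq2 without a block called 16 genes (0.0827%), 7 higher (0.0362%) and 9 lower (0.0465%). With the original number as a block over the 12 shoot libraries edgeR called 2 (0.0103%), CAX1 and NUDT5, both higher, and DESeq2 called 67 (0.463% of the 14466 genes it kept), 49 higher (0.339%) and 18 lower (0.124%). DESeq2 with that block was chosen after the data had been seen. With the labels' replicate number as a block instead, edgeR called 64 genes (0.331%), 25 higher (0.129%) and 39 lower (0.202%). CAX1, MYB30 and CIPK15 were among those higher, and PAL1, PAL2, C4H, 4CL3, GBSS1, BAM3, BMY3 and HY5 among those lower. The labels do not say whether replicates came from separate plants, so the p-values reflect library-to-library spread alone, and that spread could be technical.

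**Figure D2:**
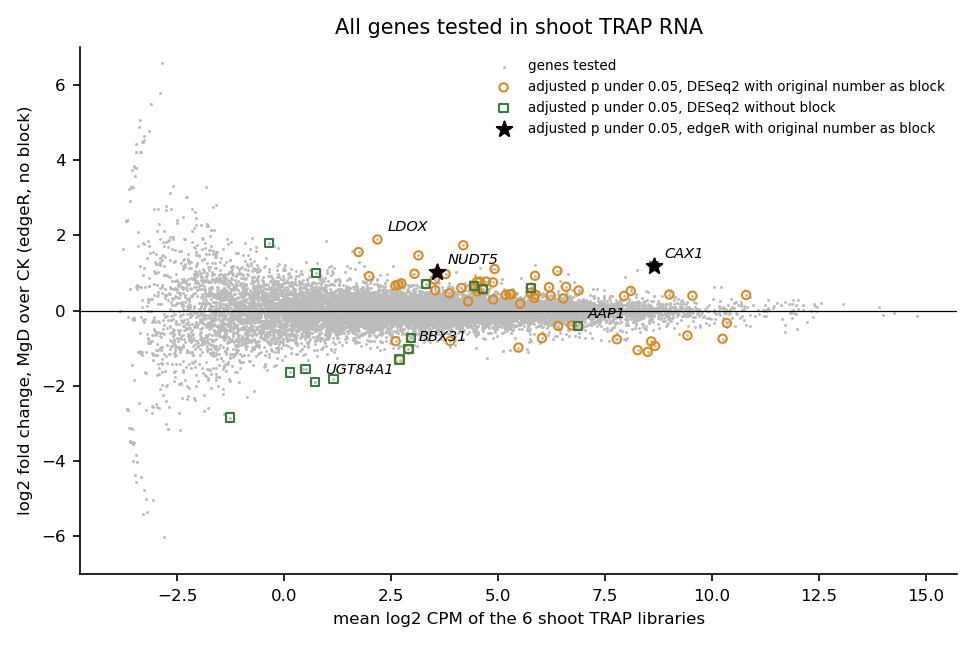
Log2 fold change of MgD over CK (y axis, edgeR without a block) against mean log2 CPM of the 6 shoot TRAP libraries (x axis) for all 19341 genes tested (grey points). Coloured symbols mark genes with an adjusted p under 0.05 in DESeq2 without a block (16), DESeq2 with the original number as a block (67) and edgeR with that block (2).

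Among the calcium genes, 24 of 26 listed members were tested and 0 were called by edgeR. The 5 members CAX1, CBL2, CBL1, ACA4 and CBL3 had higher values with an unadjusted p under 0.05 (3.58% of all genes). In each of them every MgD library lay above every CK library (5.62% of all genes). No member was lower at that threshold, and the list's median log2 fold change was 0.03, beside 0.00 over all genes. CBL2, a calcium sensor of the tonoplast, had 23.3, 21.1 and 24.4 CPM under MgD, against 17.39, 17.9 and 17.0 under CK (0.39 ± 0.11; edgeR adjusted p = 0.53). CBL3, its close relative at the same membrane, had 21.1, 21.7 and 29.2 CPM under MgD, against 19.7, 18.5 and 20.2 under CK (0.30 ± 0.13). The plasma membrane sensor CBL1 was lower in level, with 6.35, 4.98 and 6.84 CPM under MgD and 4.01, 4.71 and 4.301 under CK (0.48 ± 0.18). ACA4, a calcium pump of vacuolar membranes, had 113, 112 and 112 CPM under MgD, against 65.4, 96.0 and 87.0 under CK (0.44 ± 0.16). For ACA4 the MgD libraries were nearly equal and the CK libraries were spread. With the original number as a block the estimates were 0.25 for ACA4 and 0.19 for CBL3. CIPK15, a CBL-interacting kinase named for its p, had 33.1, 35.7 and 32.5 CPM under MgD, against 19.4, 25.01 and 23.9 under CK (0.57 ± 0.13; adjusted p = 0.505 in edgeR and 0.0732 in DESeq2). DESeq2 with the block called AT3G22910, annotated as an E1-E2 type ATPase, at 0.99 (adjusted p = 0.00161), although its MgD values of 22.2, 7.01 and 10.2 CPM overlapped the CK values of 6.49, 10.8 and 2.68.

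Of 12 listed magnesium transport genes 10 were tested, 0 were called by edgeR, 9 had a positive (50.3% of all genes) and 1 a negative estimate, and the median was 0.18. MHX, the vacuolar exchanger of magnesium and protons, had 40.8, 40.2 and 49.3 CPM under MgD, against 38.4, 36.2 and 35.4 under CK (0.24 ± 0.10; unadjusted p = 0.031, adjusted p = 0.635). Its groups did not overlap, and it was the single member with an unadjusted p under 0.05 (3.58% of all genes were higher at it). The MGT genes encode magnesium channels of the MRS2 family. The tonoplast members MGT2 and MGT3 had log2 fold changes of 0.01 ± 0.10 and 0.23 ± 0.15, the chloroplast member MGT10 0.01 ± 0.10, and MGT6, known for uptake in roots, 0.04 ± 0.11. For MGT1 the value was 0.29 ± 0.23, for MGT4 -0.13 ± 0.11, for MGT7 0.23 ± 0.43 and for MGT9 0.12 ± 0.19. CNGC10, a cyclic nucleotide-gated channel, had 0.44 ± 0.41. Groups overlapped for all of these 9 genes. With the original number as a block the estimates were 0.53 for MGT7, 0.77 for CNGC10, 0.01 for MGT9, and 0.06 for both MGT2 and MGT10. By TPM the order under MgD ran from MGT4 (31.2 ± 4.18) through MHX (28.4 ± 3.17), MGT10 (27.6 ± 2.22) and MGT2 (25.3 ± 1.43) to MGT6 (18.7 ± 1.46), and neighbours from MGT4 to MGT2 differed by less than their SDs combined (n = 3). MGT5 and AT5G09720 had 0 counts in all 6 libraries. If counts were independent, this would allow up to 3 counts in each, by counting error alone. Counts up to 100 were even in 89.0% to 91.9% of cases, so they may not be independent and the limit may be higher.

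Aquaporins, the water channels of the plasma membrane (PIP) and tonoplast (TIP), had mostly negative estimates. Of 20 listed genes 19 were tested and edgeR called 0, with 10 lower and 0 higher at an unadjusted p under 0.05, where 3.83% of all genes were lower. TIP2;3, one of these 10, had a mean of 0 CPM under MgD and 0.059 CPM under CK. In 8 of the 19 the groups did not overlap and MgD was lower (4.94% of all genes), 18 estimates were negative, and the median was -0.31. TIP2;1 had 1044, 1206 and 1149 CPM under MgD, against 1674, 1363 and 1581 under CK (-0.44 ± 0.14; adjusted p = 0.565). PIP1;2, the aquaporin with the highest level of those named, had 3698, 3462 and 3306 CPM under MgD, against 5833, 4458 and 4295 under CK (-0.48 ± 0.16). PIP1;1 stood at 781, 762 and 687 CPM under MgD and 1111, 862 and 957 under CK (-0.39 ± 0.14), and PIP2;5 at 25.8, 24.9 and 28.7 CPM under MgD and 41.9, 29.4 and 30.9 under CK (-0.36 ± 0.14). CK replicate 1 was the highest library for all 4 of these genes, and with the original number as a block the edgeR estimates were -0.33 for TIP2;1, -0.26 for PIP1;2, -0.22 for PIP1;1 and -0.22 for PIP2;5. PIP2;3 had 351, 292 and 256 CPM under MgD, against 771, 450.2 and 505 under CK, and DESeq2 with the block called it lower (-0.50, adjusted p = 0.023; -0.94 ± 0.36 and adjusted p = 0.631 in edgeR without a block). Reads of PIP2;3 and its near-identical neighbour PIP2;2 may have been split between them. In shoot total RNA the median of the list was -0.15, and in root TRAP RNA 0.14.

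**Figure D3:**
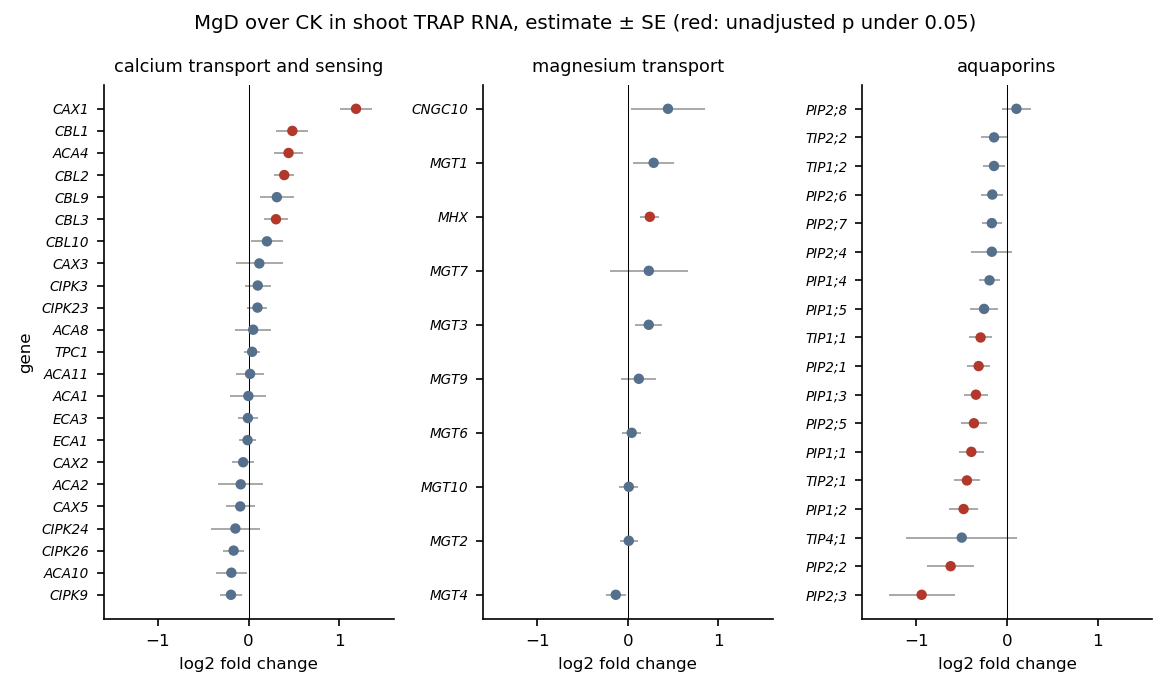
Log2 fold change of MgD over CK in shoot TRAP RNA (x axis) with SE bars for the tested members of 3 gene lists whose mean CPM summed over both groups exceeded 1, red where the unadjusted p was under 0.05. CAX1 stands at 1.19 above the rest of the calcium list, the magnesium transporters lie between -0.13 and 0.44, and all aquaporins drawn except PIP2;8 lie below 0.

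GBSS1, the starch synthase that makes amylose, had 328, 195 and 162 CPM under MgD, against 742, 415 and 262 under CK. BAM3, the main beta-amylase of starch breakdown at night, had 366, 239 and 194 CPM under MgD, against 949.5, 463 and 298 under CK. In both genes the groups overlapped, since MgD replicate 1 lay above CK replicate 3, and CK replicate 1, the library without a partner of its original number in MgD, was the highest. Within number 2 the MgD library had 0.790 times the CK level of GBSS1, and within number 3 it had 0.744 times. DESeq2 with the block called both genes lower under MgD (GBSS1 -0.40, adjusted p = 0.00231; BAM3 -0.41, adjusted p = 0.0302), against unblocked edgeR estimates of -1.05 ± 0.55 and -1.10 ± 0.55 (adjusted p = 0.716 and 0.701). BMY3, another beta-amylase family member, had 40.0, 34.9 and 22.2 CPM under MgD and 81.5, 55.7 and 54.9 under CK, with no overlap, and the same fit called it lower (-0.54, adjusted p = 0.00101; -0.98 ± 0.40 in edgeR without a block). BMY3 had an unadjusted p of 0.0368 in edgeR and was not on the starch list. Of the 16 tested genes on that list of starch synthesis and breakdown, 10 had positive and 6 negative estimates, with a median of 0.04. BAM1, a beta-amylase known from stressed leaves and guard cells, was the single list member with an unadjusted p under 0.05 (3.83% of all genes were lower at it). It had 173, 140.3 and 138 CPM under MgD and 269.6, 185 and 183 under CK (-0.50 ± 0.19, and -0.24 with the block).

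Sucrose genes were lower in estimate throughout: all 9 tested were negative (49.4% of all genes), 2 with an unadjusted p under 0.05 (3.83% of all genes were lower at that threshold) and 0 called by edgeR, with a median of -0.13. SUC2, which loads sucrose into the phloem, had 147, 143 and 169 CPM under MgD, against 180.4, 169 and 207 under CK, groups that overlap in rounded values and are separate in the unrounded ones (-0.28 ± 0.12; adjusted p = 0.638). SWEET11, which releases sucrose next to the phloem, had 196, 173 and 156 CPM under MgD, against 299, 206 and 214 under CK (-0.45 ± 0.19; adjusted p = 0.646), and its estimate was -0.20 with the block. FTIP1, a phloem protein that moves the florigen FT, had 118, 92.8 and 107 CPM under MgD, against 129, 133 and 136 under CK (-0.33 ± 0.12; adjusted p = 0.593). All 5 phloem markers had negative estimates, and together they took 0.0550% to 0.0605% of counts under MgD and 0.0614% to 0.0768% under CK. The part of phloem cells in the lower SUC2 value was not tested.

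In the phenylpropanoid pathway, the estimates of the entry enzymes PAL1, PAL2, C4H and 4CL3 were negative and those of the late anthocyanin enzymes DFR and LDOX were positive. PAL2, a phenylalanine ammonia-lyase, had 218, 161 and 137 CPM under MgD, against 379.6, 265 and 231 under CK, with no overlap. DESeq2 with the block called PAL2 (-0.46, adjusted p = 0.00411) and PAL1 (-0.44, adjusted p = 0.0302) lower. PAL1 had 441, 249 and 217 CPM under MgD, against 750.5, 487 and 363 under CK, and these overlap. C4H, the next enzyme, had -0.56 ± 0.21 (unadjusted p = 0.0219, edgeR adjusted p = 0.595), and 4CL3 had -1.04 ± 0.49 (adjusted p = 0.688). With the block in edgeR these were -0.31 for C4H and -0.49 for 4CL3, and without it PAL1 had -0.82 ± 0.40 and PAL2 -0.76 ± 0.27. LDOX, which makes anthocyanidins, had 6.94, 5.17 and 16.8 CPM under MgD, against 3.54, 2.92 and 1.22 under CK. DFR, the enzyme before it, had 11.4, 8.12 and 27.8 CPM under MgD, against 6.78, 6.12 and 4.14 under CK. For both, MgD replicate 3, without a TRAP partner of its original number, was the highest library. Every MgD library lay above every CK library. DESeq2 with the block called LDOX (1.45, adjusted p = 0.0005) and DFR (0.86, adjusted p = 0.0135) higher, while edgeR without a block gave 1.89 ± 0.64 and 1.46 ± 0.59 (adjusted p = 0.594 and 0.646). Over the 15 tested genes of the flavonoid and anthocyanin list, which holds PAL1 and not PAL2, 7 estimates were positive and 8 negative, and the median was -0.15.

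The 250 bases before the starts of PAL1, PAL2, DFR and LDOX are shown because these 4 genes passed in opposite directions within one pathway. They lie in TAIR10.1 (RefSeq) at chr2:15560756-15561005 (reverse strand), chr3:19747115-19747364 (reverse strand), chr5:17166033-17166282 (reverse strand) and chr4:12006210-12006459 (reverse strand), and none overlaps another gene. Capitals mark motifs found on either strand: a W-box in PAL1 and in PAL2, a W-box (as AGTCAA, its reverse complement) and a G-box in DFR, and a site II element and 3 W-boxes in LDOX. None of these matches overlaps another. A W-box was present in 28.4% of 27443 promoters of the same length, a G-box in 6.49% and a site II element in 13.7%.
PAL1: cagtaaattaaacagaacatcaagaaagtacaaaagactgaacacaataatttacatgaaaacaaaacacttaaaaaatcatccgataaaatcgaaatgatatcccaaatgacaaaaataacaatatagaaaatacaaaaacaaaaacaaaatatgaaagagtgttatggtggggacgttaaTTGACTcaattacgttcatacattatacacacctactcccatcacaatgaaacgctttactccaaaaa
PAL2: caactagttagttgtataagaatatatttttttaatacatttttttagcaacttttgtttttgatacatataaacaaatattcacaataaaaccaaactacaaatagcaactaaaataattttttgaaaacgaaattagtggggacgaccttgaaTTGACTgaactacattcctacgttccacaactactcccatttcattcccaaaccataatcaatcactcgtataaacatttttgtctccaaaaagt
DFR: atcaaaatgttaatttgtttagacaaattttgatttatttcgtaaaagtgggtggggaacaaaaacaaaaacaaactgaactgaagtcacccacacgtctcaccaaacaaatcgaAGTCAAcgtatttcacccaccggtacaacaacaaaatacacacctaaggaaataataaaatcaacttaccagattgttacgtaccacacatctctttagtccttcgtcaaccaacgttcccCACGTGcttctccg
LDOX: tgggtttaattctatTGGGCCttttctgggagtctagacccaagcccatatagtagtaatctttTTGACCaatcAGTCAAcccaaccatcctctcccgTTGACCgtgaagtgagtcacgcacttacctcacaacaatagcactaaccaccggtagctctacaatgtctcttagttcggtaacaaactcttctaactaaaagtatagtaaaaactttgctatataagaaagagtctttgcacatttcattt

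NUDT5, a nudix hydrolase, had 34.8, 13.7 and 10.2 CPM under MgD, against 9.61, 15.6 and 3.73 under CK, and the groups overlapped. The MgD library had 2.24 times the CK level within number 2 and 3.66 times within number 3. With the block edgeR called NUDT5 higher (1.32, adjusted p = 0.00125), against 1.02 ± 0.68 (adjusted p = 0.791) without it. Leaving out CK replicate 3 ended that call (1.07, adjusted p = 0.0722). Its chromosomal neighbour NUDT6, known to hydrolyse NADH, had 155, 65.3 and 54.7 CPM under MgD, against 48.0, 78.3 and 18.7 under CK, and DESeq2 with the block called it higher (1.23, adjusted p = 0.0123). For both genes the highest MgD library was replicate 1 and the highest CK library was replicate 2, both number 2.

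The same DESeq2 fit called a number of kinases, transcription factors and other genes higher under MgD, none of which edgeR called over the 12 shoot libraries with or without that block. On the 6 TRAP libraries alone, with 1 residual degree of freedom, edgeR with the block called 150 genes over all those tested. These held 40 of the 67 genes, among them ARCK1, SARD1, WRKY54, WRKY50, AIG1, ABCG40, ARD3, CRK7 and CRK37. That fit rests on the same TRAP libraries and the same block, so it gives no separate support to the DESeq2 calls. ARCK1, a receptor-like cytosolic kinase, had 107, 53.4 and 49.96 CPM under MgD, against 54.7, 75.5 and 21.2 under CK (0.81, adjusted p = 0.00101). SARD1, a regulator of salicylic acid synthesis, had 74.8, 39.6 and 31.9 CPM under MgD, against 41.9, 49.4 and 16.8 under CK (0.74, adjusted p = 0.011). The transcription factor WRKY54 did not overlap between groups, with 45.4, 31.4 and 28.7 CPM under MgD and 20.9, 25.6 and 15.3 under CK (0.70, adjusted p = 0.0394). WRKY50 (1.09), the GTP-binding protein AIG1 (1.49), the cysteine-rich receptor kinases CRK4 (0.39), CRK7 (0.59) and CRK37 (0.95), and the abscisic acid importer ABCG40 (1.06) also passed, with overlapping groups. Without a block the edgeR estimates were smaller, at 0.18 ± 0.24 for CRK4, 0.24 ± 0.58 for CRK7, 0.46 ± 0.79 for CRK37, 0.44 ± 0.53 for SARD1, 0.47 ± 0.56 for ARCK1, 0.69 ± 0.69 for WRKY50 and 0.82 ± 0.81 for ABCG40 (adjusted p of 0.874 to 0.961). Leaving out MgD replicate 1 turned the unblocked estimate negative for CRK4 (-0.0303), CRK7 (-0.36), CRK37 (-0.11), SARD1 (-0.0156) and ABCG40 (-0.17), and leaving out CK replicate 3 did so for CRK4 and CRK7. ECS1, a cell wall protein of high level, had 1924, 2308 and 1964 CPM under MgD, against 1730, 1571 and 1350 under CK, without overlap (0.50, adjusted p = 0.0144). ARD3, an acireductone dioxygenase of methionine salvage, had the largest estimate among the 49 genes called higher (2.04, adjusted p = 0.037), at 70.2, 28.1 and 20.4 CPM under MgD and 12.9, 19.0 and 3.57 under CK. The list of 12 salicylic acid and immunity genes had a median of 0.10, with 0 called by edgeR without a block or by DESeq2 with it. In that list 1 member, PCC1, was higher at an unadjusted p under 0.05 (3.58% of all genes), with overlapping groups (0.51 ± 0.20).

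The endoplasmic reticulum proteins BIP2, PDIL1-1, PDIL2-2 and ATERDJ3B were among the genes that DESeq2 called with the block. BIP2, an Hsp70 of its lumen, had 837, 491 and 524 CPM under MgD, against 444, 630.1 and 306 under CK (0.43, adjusted p = 0.0398). The protein disulfide isomerase PDIL1-1 had 439, 296 and 287 CPM under MgD, against 222, 334 and 156 under CK (0.54, adjusted p = 0.0302). ATERDJ3B, a DnaJ partner of BIP, had 112, 87.4 and 78.7 CPM under MgD, against 59.2, 80.1 and 41.5 under CK (0.69, adjusted p = 0.00341), and PDIL2-2 had 0.77 (adjusted p = 0.0161). In these genes too, the highest library of each group was the one numbered 2. They were picked from the called genes after their values were seen and are no list of their own. The heat shock list had a median of -0.43 over 9 tested, with 0 at an unadjusted p under 0.05.

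NDR1, a plasma membrane protein required for resistance through several immune receptors, had 26.1, 28.2 and 27.5 CPM under MgD, against 17.63, 19.2 and 14.8 under CK (0.66 ± 0.13; adjusted p = 0.384 in edgeR, 0.0234 in DESeq2 and 0.0161 in DESeq2 with the block). ENODL8, an early nodulin-like protein, had 59.5, 63.8 and 78.2 CPM under MgD, against 45.4, 44.7 and 42.2 under CK (0.61 ± 0.12; DESeq2 adjusted p = 0.0358). EXPA16, an expansin that loosens cell walls, had 13.2, 12.3 and 12.3 CPM under MgD, against 8.08, 6.86 and 8.36 under CK (0.70 ± 0.14; DESeq2 adjusted p = 0.0299). AT1G76020, annotated as a thioredoxin superfamily protein, had 27.3, 31.6 and 33.1 CPM under MgD, against 20.9, 19.8 and 20.8 under CK (0.58 ± 0.11; DESeq2 adjusted p = 0.0175). DESeq2 called these 4 genes higher both with and without the block. Further wall genes passed in DESeq2 with the block and not without it: the expansin EXPB1 (0.71, adjusted p = 0.0343), at 33.6, 39.0 and 43.3 CPM under MgD and 29.8, 19.4 and 19.7 under CK, and XTH10, a xyloglucan endotransglucosylase (1.51, adjusted p = 0.006), at 8.80, 4.31 and 4.46 CPM under MgD and 2.299, 2.35 and 1.299 under CK.

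MYB30, a transcription factor of cell death and brassinosteroid responses, had 9.07, 10.9 and 13.8 CPM under MgD, against 4.95, 7.33 and 5.03 under CK (0.96 ± 0.22; adjusted p = 0.505 in edgeR and 0.0547 in DESeq2). Other genes chosen for small p were OXA1L (0.60 ± 0.14), PRA1.B6 (0.72 ± 0.17), PS1 (0.48 ± 0.12), TBL13 (0.50 ± 0.12) and the receptor kinase RK3 (0.53 ± 0.14), all without overlap. Among large estimates, GDPD6, a glycerophosphodiester phosphodiesterase, had 4.01, 5.23 and 6.54 CPM under MgD and 0.943, 1.98 and 2.35 under CK (1.59 ± 0.66, and 0.88 with the original number as a block), and VSP1, a vegetative storage protein, had 63.8, 16.4 and 14.6 CPM under MgD and 10.6, 14.4 and 11.0 under CK (1.41 ± 0.76). MgD replicate 1 lay far above the other libraries for VSP1. The auxin and shade list, which holds growth regulators, had a median of 0.00 over 14 genes. PIF4 had 138, 152 and 134 CPM under MgD, against 74.3, 108 and 119.7 under CK (0.49 ± 0.16). IAA29 had 0.77 ± 0.28 with overlapping groups, and -0.86 ± 0.30 in shoot total RNA. TCH4, a touch-induced wall enzyme, had 16.5, 18.8 and 19.1 CPM under MgD, against 10.3, 14.3 and 9.82 under CK (0.66 ± 0.22; adjusted p = 0.593).

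On the lower side, BBX31 and AAP1 passed in DESeq2 with and without the block. BBX31, a B-box protein of light signalling, had 5.87, 5.42 and 4.40 CPM under MgD, against 12.2, 9.14 and 10.7 under CK (-1.03 ± 0.21; adjusted p = 0.384 in edgeR and 0.0175 in DESeq2). AAP1, an amino acid permease, had 97.2, 96.1 and 110.2 CPM under MgD, against 135, 126 and 143 under CK (-0.41 ± 0.09; adjusted p = 0.505 in edgeR and 0.0419 in DESeq2). HY5 and ELIP2, both light-regulated, did not overlap between groups. HY5, the bZIP factor of photomorphogenesis, had 6.79, 4.62 and 4.09 CPM under MgD, against 16.7, 8.54 and 8.36 under CK (-1.12 ± 0.40; adjusted p = 0.594 in edgeR and 0.194 in DESeq2; -0.60 with the block), and ELIP2, an early light-induced chlorophyll-binding protein, was called by DESeq2 with the block (-1.00, adjusted p = 0.0354). In the clock list 14 of 17 tested genes had negative estimates (49.4% of all genes), with a median of -0.25, and 2, the morning gene RVE1 (-0.94 ± 0.40) and the RNA-binding protein gene GRP7 (-0.35 ± 0.14), had an unadjusted p under 0.05 (3.83% of all genes were lower at it). Both genes overlapped between groups, and the RVE1 estimate was -0.55 with the original number as a block. Sampling time within the day was not given in the labels, and its part in these values was not tested.

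CYS1, a cystatin that inhibits cysteine proteases, had 83.5, 97.2 and 96.7 CPM under MgD, against 119, 116 and 129 under CK, and was called by DESeq2 with the block (-0.43, adjusted p = 0.00712). The same fit called the metallothionein MT2B (-0.38, adjusted p = 0.0276) and the polyubiquitin genes UBQ11 (-0.45, adjusted p = 0.0072) and UBQ14 (-0.40, adjusted p = 0.012) lower. Without a block the polyubiquitin estimates were -0.75 ± 0.27 for UBQ11 and -0.66 ± 0.23 for UBQ14. Polyubiquitin genes share near-identical repeats, so reads may have been split between them. NRT1.5, which loads nitrate into the xylem, had 63.9, 54.0 and 57.3 CPM under MgD, against 121, 74.97 and 76.7 under CK (-0.64 ± 0.17; edgeR adjusted p = 0.53). The ferric reductase FRO2 (-0.73 ± 0.20), the phytate transporter ABCC5 (-0.48 ± 0.13), the malate importer ABCB14 (-0.99 ± 0.26), the wax gene CER3 (-0.45 ± 0.12), the cell cycle inhibitor KRP2 (-0.64 ± 0.17), DPA4 (-0.90 ± 0.24), emb1129 (-0.52 ± 0.14) and UBQ4 (-0.41 ± 0.11) had lower values without overlap, with adjusted p of 0.53 or 0.55 in edgeR without a block. NIT2, a nitrilase, had 11.9, 24.0 and 18.21 CPM under MgD, against 28.1, 44.6 and 57.3 under CK (-1.27 ± 0.39), and PUB19, a U-box ubiquitin ligase, had 31.0, 19.9 and 22.7 CPM under MgD, against 77.2, 37.6 and 41.1 under CK (-1.08 ± 0.41, and -0.58 with the block). Iron homeostasis genes had a median of -0.46 over 17 tested, with 1 lower at an unadjusted p under 0.05 (3.83% of all genes).

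The other genes that DESeq2 called without a block were of low level or lacked a symbol. UGT84A1, a glucosyltransferase of phenylpropanoids, had 0.684, 0.985 and 0.794 CPM under MgD, against 3.95, 2.89 and 2.35 under CK (-1.90 ± 0.39; DESeq2 adjusted p = 0.0175). AT1G12570 (-1.304 ± 0.33, and -0.86 with the block in edgeR), AT1G44830 (-2.85 ± 0.69), AT3G55840 (-1.64 ± 0.38), AT4G30180 (-1.56 ± 0.35) and AT5G43260 (-0.73 ± 0.16) were lower, and the Ovate family gene AT2G36026 was higher (1.80 ± 0.37), all without overlap. The organelle genes ATCG01020 (0.99 ± 0.23) and ATMG00030 (-1.81 ± 0.40) were also called. ATMG00030 had 0.904, 1.14 and 1.68 CPM under MgD, against 5.31, 5.65 and 1.83 under CK, so CK replicate 3 stood close to the MgD libraries.

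Of 36 nuclear photosynthesis genes all were tested, the estimates ran from -0.12 to 0.30 with a median of 0.10, and 2 were higher with an unadjusted p under 0.05 (3.58% of all genes), with no member free of overlap. Chlorophyll synthesis genes had a median of 0.04 over 14 tested, and chlorophyll breakdown genes -0.12 over 6, with 0 at an unadjusted p under 0.05 in both lists. For the sulfate transport and starvation list the median was -0.27 over 13 tested genes, with 2 lower and 0 higher at that threshold (3.83% and 3.58% of all genes). Abscisic acid genes had a median of -0.18 over 15, ethylene genes -0.02 over 21, jasmonate genes -0.19 over 10 and glucosinolate genes -0.05 over 18. The edgeR test without a block called 0 members of each of these lists, and DESeq2 with the original number as a block called 0 as well. With the labels' replicate number as a block, edgeR called PORB of the chlorophyll synthesis list higher (0.66, adjusted p = 0.00842).

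**Figure D4:**
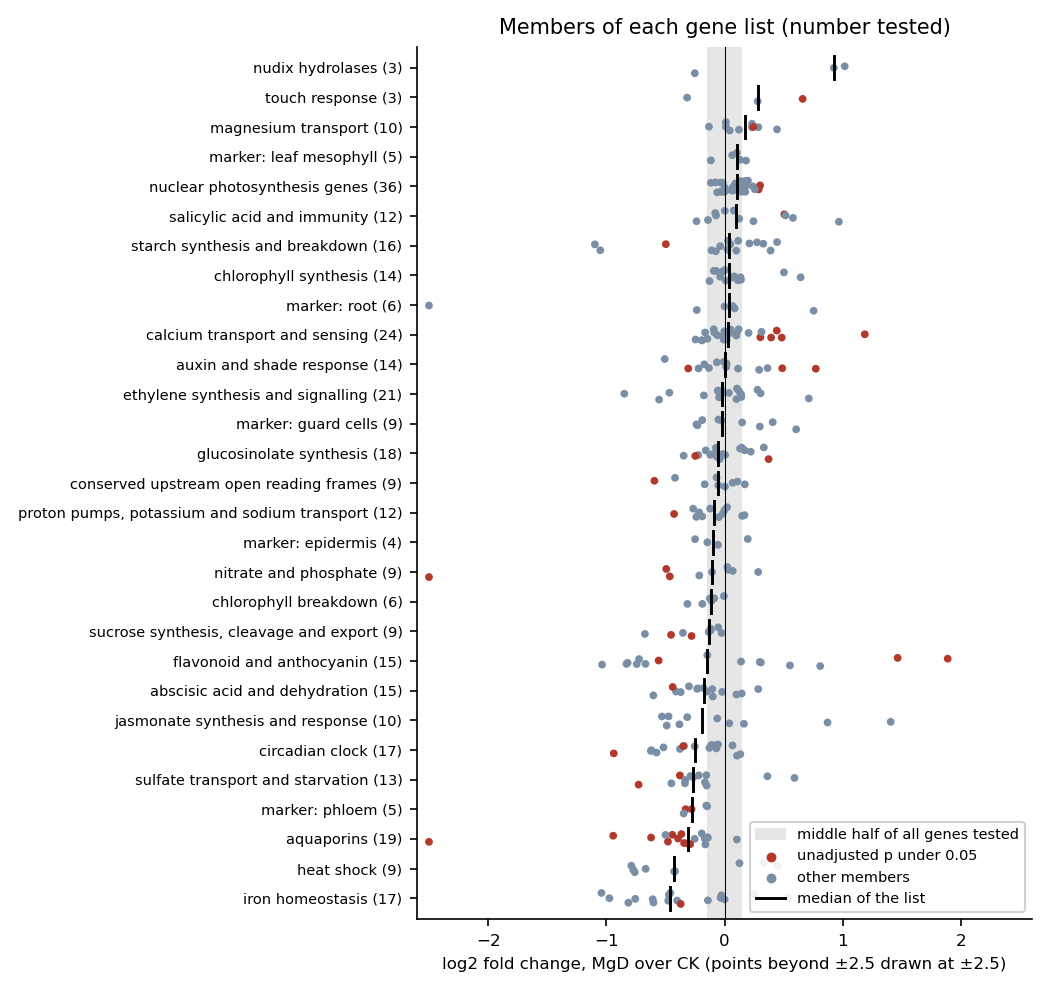
Log2 fold change of MgD over CK in shoot TRAP RNA (x axis) for the tested members of each gene list (y axis, number tested in brackets), red where the unadjusted p was under 0.05, with the list median as a black bar and the range between the quartiles of all genes as a grey band. Aquaporins (median -0.31), heat shock (-0.43) and iron genes (-0.46) lie to the left, and photosynthesis genes (0.10) lie close to 0.

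Shoot total RNA from plants of both treatments was used to ask whether the ribosome-bound RNA moved differently from the RNA pool. The difference between the responses was not called for any of 19341 genes by edgeR (0%), with 764 at an unadjusted p under 0.05 (3.95%), nor by DESeq2. CAX1 had 449, 507 and 621 CPM under MgD in total RNA, against 288, 237 and 355 under CK, and the TRAP response exceeded the total one by 0.34 (unadjusted p = 0.192). For MHX the TRAP estimate was 0.24 ± 0.10 and the total estimate -0.19 ± 0.10, with an unadjusted p of 0.00967 for the difference and an adjusted p of 1. AT1G76020 (0.67, unadjusted p = 0.00035), PS1 (0.63, unadjusted p = 0.0013) and ENODL8 (0.50, unadjusted p = 0.0091) were likewise higher in TRAP than in total response before adjustment. So was IAA29 (1.63, unadjusted p = 0.0012), with estimates of opposite sign in the TRAP RNA and the total RNA. All shoot TRAP libraries carried one lane label and the total libraries another, so lane and RNA type cannot be told apart.

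Root TRAP RNA gave a further comparison, with the response of ribosome-bound RNA below ground. Over 21163 genes edgeR called 0 differences (0%), with 2301 at an unadjusted p under 0.05 (10.9%), and DESeq2 called 110 (0.53% of 20751), 62 higher (0.299%) and 48 lower (0.231%) in the shoot response. The phloem genes SUC2 and FTIP1 were among them. SUC2 had 94.1, 94.4 and 83.6 CPM under MgD in root TRAP RNA, against 55.0, 56.8 and 65.9 under CK, the opposite order to the shoot (difference -0.89 ± 0.19; DESeq2 adjusted p = 0.0054, edgeR adjusted p = 0.15). FTIP1 had 188, 243 and 171 CPM under MgD in root TRAP RNA, against 111.5, 149 and 139 under CK (difference -0.92 ± 0.21; DESeq2 adjusted p = 0.0091, edgeR adjusted p = 0.165). CIPK15 differed the other way (1.22 ± 0.26; DESeq2 adjusted p = 0.018). CAX1 had 27.1, 39.3 and 41.5 CPM under MgD in root TRAP RNA, against 12.2, 21.8 and 35.3 under CK, and its responses did not differ by test (0.56 ± 0.41; unadjusted p = 0.19). Tissue and lane label cannot be told apart in this comparison either.

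**Figure D5:**
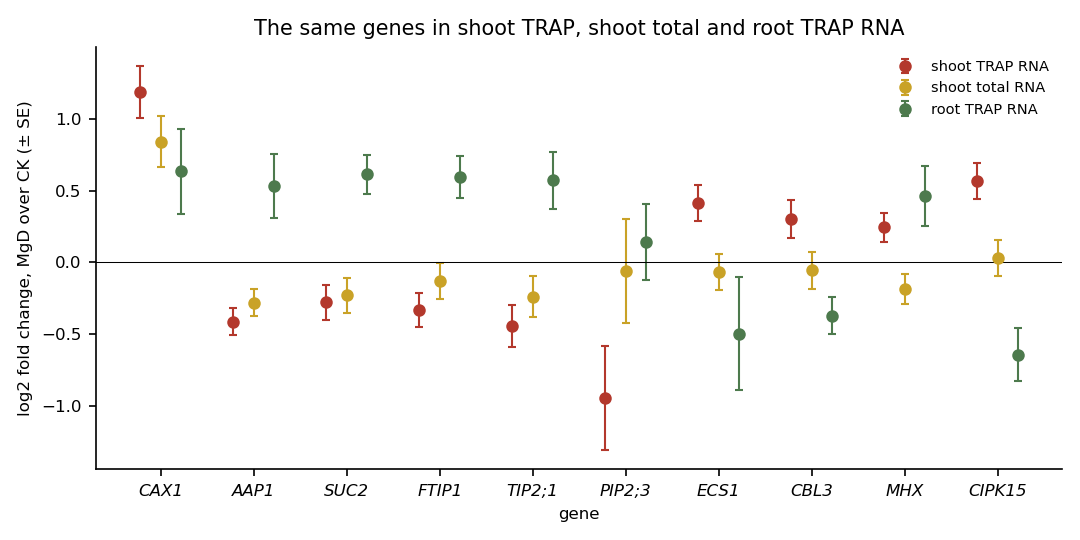
Log2 fold change of MgD over CK (y axis, estimate ± SE) of 10 genes (x axis) in shoot TRAP RNA (red), shoot total RNA (yellow) and root TRAP RNA (green). CAX1 lies above 0 in all 3, and SUC2, FTIP1, TIP2;1 and AAP1 lie below 0 in shoot TRAP RNA and above 0 in root TRAP RNA.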

How the data were processed

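The mRNA libraries from rosette leaves and roots were sequenced by the submitters. The submitters' processing notes name FastQC, Trimmomatic, STAR 2.7.6a and Subread 2.0.0. The authors deposited raw read counts per gene and TPM values. No label or header names the genome build. Gene lengths behind the deposited TPM matched TAIR10.1 gene models for 99.2% of 15915 genes. Counts up to 100 were even in 89.0% to 91.9% of cases.

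From the counts, edgeR 4.0.16 (quasi-likelihood test, TMM scaling, low-count filter) was fitted to the 12 shoot libraries with 4 group means, and the MgD minus CK contrast of shoot TRAP was adjusted over all genes by Benjamini-Hochberg at 0.05. DESeq2 1.42.0 and limma 3.58.1 were alternatives. Responses were compared with shoot total RNA and root TRAP RNA by interaction terms. The edgeR fit without a block was run on simulated counts with known changes. The DESeq2 fits, the fits with a block and the interaction terms were not. Marker shares were compared with exact two-sided permutation tests.

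The original library numbers come from the submitters' list of original library names, while the count columns carry the labels' replicate numbers. Over the shoot libraries, deviations from the group means correlated at 0.1175 to 0.5424 in all 13 pairs that shared an original number (threshold 0.1). Of 41 pairs with different original numbers, 10 also exceeded 0.1, over a range of -0.5715 to 0.381. Of 18 pairs that shared the labels' number, 14 exceeded it. The original number was used as a block, a choice drawn from these same data. Genes were named from those called by DESeq2 or by a fit with a block, from the 12 smallest p and 6 largest changes per direction among genes with a symbol, a mean log2 CPM of at least 1 and no overlap between groups, from up to 4 members of each list by p, and from all magnesium transport genes. The members and lists were chosen with earlier results of these data known. Intervals and limits from counts cover counting error only.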

Additional observations from a re-analysis of the deposited data

Results flagged for a closer look

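Among 105 tested genes named in the text, many of them named because their groups did not overlap in shoot TRAP RNA, 8 met the following pattern. Every MgD library lay on one side of every CK library in shoot TRAP RNA and on the opposite side in the other RNA. Over all genes 178 of 19318 (0.921%) showed it against root TRAP RNA and 50 of 19341 (0.259%) against shoot total RNA, a count added after the data had been seen. Against root TRAP RNA, the shoot response minus the root response was 0.68 for CBL3, -1.01 for TIP2;1, -1.09 for PIP2;3, -0.89 for SUC2, -0.92 for FTIP1, 0.91 for ECS1 and -0.94 for AAP1 on the log2 scale. Against shoot total RNA, it was 0.43 for MHX. No difference passed in edgeR (adjusted p of 0.15 for SUC2 to 0.53 for ECS1 against root, and 1 for MHX). DESeq2 called SUC2 (adjusted p = 0.0054) and FTIP1 (adjusted p = 0.0091). ECS1 had 2.47, 3.76 and 2.46 CPM under MgD in root TRAP RNA, against 4.26, 4.04 and 4.04 under CK, far below its leaf level.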

How the results depend on the processing

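The count of genes called between MgD and CK was 0 in edgeR, and 16 in DESeq2, 64 with the replicate block of the labels' numbers, 2 with the replicate block of the original number, 150 with that block on the 6 TRAP libraries (1 residual degree of freedom) and 67 in DESeq2 with that block; the cause was not tested. Leaving out each library gave 0 to 1 calls (CAX1 without CK replicate 2, ATMG00030 without CK replicate 3), and with the original-number block 10 without CK replicate 1, 4 without CK replicate 2, 2 without CK replicate 3, 39 without MgD replicate 1, 5 without MgD replicate 2 and 32 without MgD replicate 3. The labels' numbers correlated at -0.4531 to 0.5424 over 18 pairs. The difference from total RNA gave 6 calls with the labels' block and 0 to 1 with a library left out, and that from root TRAP RNA 110 in DESeq2. CAX5 reversed to 0.023 and MGT9 to -0.17 with the block on 6 libraries, and MGT9 to -0.00043 in DESeq2 with the block. With a library left out, estimates changed sign for ABCG40 (-0.17 to 1.52), CAX2 (-0.18 to 0.0344), CAX3 (-0.0766 to 0.35), CRK37 (-0.11 to 1.06), CRK4 (-0.0303 to 0.29), CRK7 (-0.36 to 0.50), MGT10 (-0.0704 to 0.0509), MGT2 (-0.0254 to 0.0277), MGT6 (-0.0236 to 0.076), MGT7 (-0.0778 to 0.48), MGT9 (-0.14 to 0.23) and SARD1 (-0.0156 to 0.73). With 3 libraries a group, genes of wide spread such as NUDT5 and AIG1 had SEs of 0.68 and 0.90.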
